A study of Drosophila melanogaster with 4 samples.

Results

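The regions described here are the Chromator-enriched regions on chromosome 4 and on the 6 Het scaffolds (2LHet, 2RHet, 3LHet, 3RHet, XHet and YHet) of the Drosophila melanogaster genome. They were chosen by sequence name from the list made for the set of both ChIP replicates, called the combined list here. Of its 5762 regions, 204 met the rule, 79 on chromosome 4 and 125 on the Het scaffolds. In the study, the chromosomal protein Chromator, whose other name is Chriz, was located by ChIP-seq with the antibody labelled WR in 2 samples of Oregon-R embryos. The embryos were wild type, 14 to 16 hours old and fixed with 1.8% formaldehyde. A further 2 samples were input chromatin of the same strain, genotype and age. No separate collections are stated for the replicates, so the spread between them may be technical. Chromatin came from whole embryos, so weak binding in most cells and strong binding in a few cannot be told apart.

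Chromator is a chromodomain protein of the interbands of polytene chromosomes, the open chromatin that separates the condensed bands. There it is known as a partner of the zinc finger protein Z4 and the JIL-1 kinase, and it also takes part in the mitotic spindle matrix. Chromosome 4 is the small autosome of the fly, whose genes are active although most of it carries heterochromatin protein and heterochromatin histone marks. The Het scaffolds hold assembled pericentric heterochromatin assigned to an arm but not joined to it, rich in repeats and poor in genes, and YHet holds part of the Y chromosome.

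Each region has 1 score, the authors' own value on a log2 scale that was read from the values. A shared stretch of 1 bp or more was taken as overlap. The depth of the libraries is unknown, since the lists hold no read totals, so intervals cover counting of regions only. Regions lie in clusters and come from the same libraries, so intervals are too narrow and no test was run over regions. Coordinates are those of FlyBase release 5, for which no genome or annotation was used here, so regions carry neither a gene name nor a sequence and are given by position. The 5 large arms (2L, 2R, 3L, 3R and X) serve as the comparison.

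In the combined list chromosome 4 was covered densely and the Het scaffolds, apart from XHet, thinly. The combined list held 58.4 regions per Mb on chromosome 4 (exact Poisson 95% interval 46.3 to 72.8), 13.5 on the Het scaffolds together (11.2 to 16.0) and 45.6 on the large arms (44.4 to 46.8). Regions covered 13.3% of chromosome 4, 2.36% of the Het scaffolds and 10.0% of the large arms. XHet had the highest density of the Het scaffolds in that list, with 63.7 regions per Mb (33.9 to 109) from 13 regions on 0.204 Mb. It had 34.3 per Mb (13.8 to 70.7, 7 regions) in replicate 1 and 19.6 (5.34 to 50.2, 4 regions) in replicate 2. The others lay between 8.64 per Mb on YHet and 21.7 per Mb on 2LHet (9.36 to 42.7). YHet and 2LHet are short scaffolds, with 3 and 8 regions. In the combined list, the interval of 2LHet overlaps that of XHet. In replicate 1 the XHet interval overlaps those of 2LHet, with 5.42 per Mb (0.657 to 19.6), and YHet, with 2.88 (0.073 to 16.1). In replicate 2 it overlaps those of all other Het scaffolds, from 2LHet with 10.8 (2.95 to 27.8) to YHet with 2.88 (0.073 to 16.1). XHet thus did not stand clear of the other Het scaffolds in replicate 2.

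The replicate lists held fewer regions, most of all on the Het scaffolds. Replicate 1 had 34.0 regions per Mb on chromosome 4, 4.96 on the Het scaffolds and 32.5 on the large arms. Replicate 2 had 34.8 on chromosome 4, 4.85 on the Het scaffolds and 31.3 on the large arms. In neither replicate did the interval of chromosome 4 (24.9 to 45.4 and 25.6 to 46.2) leave out the value of the large arms. The combined list held 79 regions of chromosome 4, against 46 in replicate 1 and 47 in replicate 2, and 125 Het regions, against 46 and 45.

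Over all widths, replicate support for combined-list regions was highest on the large arms and lowest on the Het scaffolds, with chromosome 4 between them. On chromosome 4, 41 of 79 combined-list regions were overlapped by both replicate lists (51.9%, Wilson 95% interval 41.1 to 62.6). On the Het scaffolds it was 33 of 125 (26.4%, 19.5 to 34.7), against 61.9% (60.6 to 63.2) on the large arms and 59.8% of the whole combined list. Neither replicate list overlapped 31 regions of chromosome 4 (39.2%, 29.2 to 50.3) and 73 of the Het scaffolds (58.4%, 49.6 to 66.7), against 26.1% on the large arms and 28.1% of the whole list. The intervals of the Het scaffolds lie clear of those of the large arms in both measures. The interval of chromosome 4 includes the large-arm share for overlap by both and lies above it for overlap by neither. Both shares moved with width. Among regions of at least 1301 bp, the shortest width in the replicate lists, neither list overlapped 15 of 62 on chromosome 4 (24.2%, 15.2 to 36.2) and 16 of 66 on the Het scaffolds (24.2%, 15.5 to 35.8), against 12.2% (11.3 to 13.2) on the large arms and 13% of the whole list. Both lists overlapped 66.1% of these on chromosome 4 (53.7 to 76.7) and 50.0% on the Het scaffolds (38.3 to 61.7), against 74.6% on the large arms and 73.5% of the whole list. Over all widths, exactly 1 replicate list overlapped 7 regions of chromosome 4 and 19 of the Het scaffolds, against 12.1% of the whole list.

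**Figure D1:**
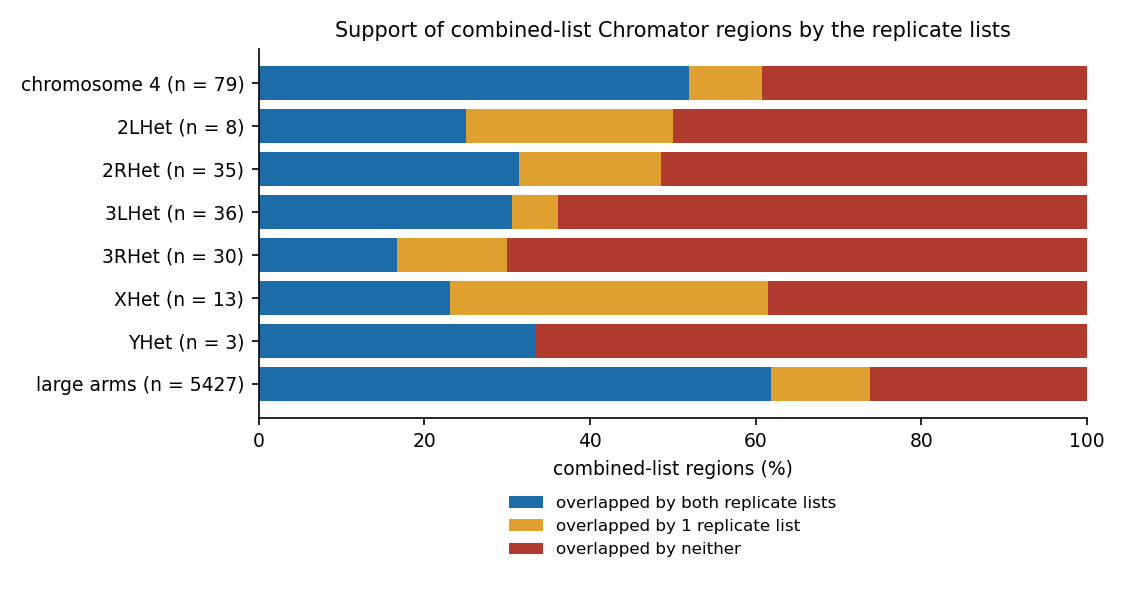
Share of combined-list regions (x axis, %) overlapped by both replicate lists, by 1 or by neither, for chromosome 4, each Het scaffold and the 5 large arms together, with the number of regions in brackets. The part overlapped by neither is 39.2% on chromosome 4, between 38.5% and 70.0% on the Het scaffolds and 26.1% on the large arms.

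Among the Het scaffolds this support spanned a broad range, with wide intervals. Overlap by neither list was 38.5% on XHet (5 of 13, 17.7 to 64.5), 50.0% on 2LHet (4 of 8), 51.4% on 2RHet (18 of 35, 35.6 to 67.0), 63.9% on 3LHet (23 of 36, 47.6 to 77.5), 66.7% on YHet (2 of 3) and 70.0% on 3RHet (21 of 30, 52.1 to 83.3). The intervals of all these scaffolds overlap, also those of XHet and 3RHet at the ends of this order. XHet had 5 of 13 regions overlapped by 1 list only, and in 4 of these it was replicate 1.

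Seen from the replicate lists, most regions of chromosome 4 were shared. Replicate 2 overlapped 41 of the 46 replicate 1 regions there (89.1%, 77.0 to 95.3), against 87.5% of the whole replicate 1 list. Replicate 1 overlapped 42 of the 47 replicate 2 regions (89.4%, 77.4 to 95.4), against 91.5% of the whole replicate 2 list. On the Het scaffolds the shares were 71.7% (33 of 46, 57.5 to 82.7) and 75.6% (34 of 45, 61.3 to 85.8). Their upper bounds lie below the shares of the whole lists.

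Along chromosome 4, combined-list regions lay from 4624 to 1316988 of its 1351857 bp, and those overlapped by both replicates from 62390 to 1236608. Each of its 13 full bins of 100 kb held at least 2 regions, with a median of 6, and at least 1 that both replicates overlapped. The fullest bin, from 400001 to 500000, held 10 regions, of which 3 were overlapped by both lists, 1 by 1 list and 6 by neither. The bins from 1100001 to 1200000 and from 1200001 to 1300000 followed with 8 each. The emptiest, from 100001 to 200000, held 2. By contrast, 11 of 32 full bins were empty on 2RHet, 8 of 25 on 3LHet and 10 of 25 on 3RHet. On YHet 2 of 3 full bins were empty, while none of the 3 on 2LHet and the 2 on XHet was.

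Neighbouring regions of chromosome 4 were separated by a median of 9.00 kb (quartiles 2.07 to 18.1 kb), those of the pooled Het scaffolds by 37.6 kb and those of the large arms by 7.48 kb. Among the Het scaffolds, XHet had a median of 4.15 kb and 2LHet of 13.0 kb. The longest stretches of chromosome 4 between combined-list regions were 73.0 kb (253005 to 325977), 68.9 kb (508391 to 577325) and 63.7 kb (743605 to 807269). On the Het scaffolds the longest were 526 kb on 3RHet (1143655 to 1669663), 511 kb on 2RHet (823879 to 1335087) and 302 kb on 3LHet (1507855 to 1810289). The first region of chromosome 4 (4624 to 5624) and the last 2 (1309848 to 1310884 and 1315496 to 1316988) were overlapped by neither replicate.

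**Figure D2:**
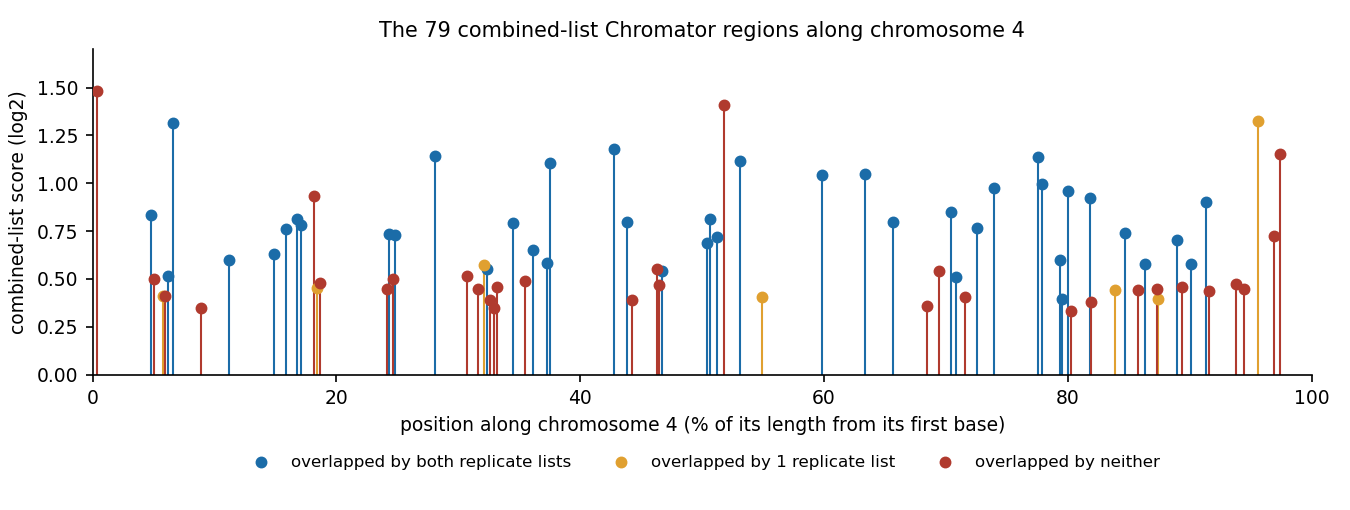
Score on the log2 scale (y axis) of each of the 79 combined-list regions of chromosome 4 by the position of its middle in percent of the chromosome's length (x axis), with colours for overlap by both replicate lists, 1 or neither. Regions overlapped by both are spread over the chromosome and reach 1.31, and those overlapped by neither lie mostly under 0.5, with 3 above 1.

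The strongest replicated region of chromosome 4 lay at 86804 to 91242. It scored 1.31 in the combined list, 1.21 in replicate 1 and 1.50 in replicate 2, and its 4439 bp made it the second widest region of the chromosome. The region at 577326 to 579934 scored 1.18, with 1.09 in replicate 1 and 1.43 in replicate 2. Both of these were higher in replicate 2.

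The other replicated regions among the 10 highest scores of chromosome 4 had closer replicate values. The region at 378190 to 381962 scored 1.14 (1.16 in replicate 1 and 1.25 in replicate 2), and the one at 1046542 to 1049204 scored 1.14 (1.18 and 1.21). The region at 715628 to 719388 scored 1.12 (1.21 and 1.15), and the one at 505804 to 508390 scored 1.10 (1.22 and 1.14). These 6 ranked between 400 and 911 of 5762 in the combined list, so none was among its 50 highest scores.

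The remaining 4 of the 10 highest scores on chromosome 4 lacked support from 1 or both replicates. The region at 1291570 to 1293608 scored 1.32, had 1.46 in replicate 1 and was not listed in replicate 2. Those at 4624 to 5624 (1.48), 699922 to 700922 (1.41) and 1315496 to 1316988 (1.15) were in neither list. The first of these 3 had the highest score of the chromosome, and it and the next were 1001 bp wide, which is the shortest width in the combined list. The next highest scores of regions overlapped by neither were 0.93 at 245098 to 246114 and 0.72 at 1309848 to 1310884.

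In the bin from 800001 to 900000 all 3 regions were in both lists. They lay at 807270 to 810508 (1.04, with 1.14 in replicate 1 and 0.95 in replicate 2), at 854568 to 857592 (1.05, with 1.08 and 1.20) and at 886704 to 888978 (0.80, with 0.85 and 0.87). The weakest replicated region of chromosome 4, at 1073672 to 1075524, scored 0.40, with 0.61 and 0.58, so both replicates gave it a higher score than the combined list did. The same held for 26 of the 41 replicated regions of chromosome 4 and 17 of the 33 of the Het scaffolds, against 1394 of 3358 on the large arms.

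Regions that 1 replicate alone listed were weak on chromosome 4, apart from the one at 1291570 to 1293608. The other 6 scored between 0.39 and 0.57 in the combined list. The strongest of these lay at 433572 to 435072, with 0.57 in the combined list and 0.95 in replicate 2. Of the 7, replicate 1 listed 5 and replicate 2 listed 2.

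Regions overlapped by neither replicate on chromosome 4 were mostly weak and narrow. Their median score was 0.46 (quartiles 0.41 to 0.51) and their median width 1237 bp, while the 41 overlapped by both had a median score of 0.78 (0.63 to 0.96) and width of 3103 bp. They lay a median of 6.97 kb from the nearest region overlapped by both, and 8 of 31 (25.8%) were within 2 kb of one. On the Het scaffolds that distance was 121 kb, with 3 of 73 (4.11%) within 2 kb. On the large arms it was 12.7 kb, with 229 of 1419 (16.1%) within 2 kb. Gaps between regions as a whole were also longest on the pooled Het scaffolds, and their part in these distances was not tested. XHet differed from the pooled values, with a median gap of 4.15 kb and a median distance of 9.78 kb (5 regions).

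Regions of at least 3000 bp made up a larger share of replicated regions on chromosome 4 and on the pooled Het scaffolds than on the large arms. Of the regions overlapped by both replicates, 22 of 41 on chromosome 4 (53.7%, 38.7 to 67.9) and 16 of 33 on the Het scaffolds (48.5%, 32.5 to 64.8) were at least 3000 bp wide, against 677 of 3358 (20.2%, 18.8 to 21.6) on the large arms and 20.8% of all replicated regions. Not every Het scaffold had such regions, as none of the 3 replicated regions of XHet and not the 1 of YHet was that wide. With unreplicated regions included, the shares were 27.8% on chromosome 4 (19.2 to 38.6), 12.8% on the Het scaffolds (16 of 125) and 12.8% on the large arms, or 12.7% of the whole list. The replicate lists differed in the same direction. In replicate 1 the shares were 21.7% on chromosome 4, 19.6% on the Het scaffolds (10.7 to 33.2) and 10.9% on the large arms. In replicate 2 they were 21.3% on chromosome 4, 13.3% on the Het scaffolds (6.26 to 26.2) and 9.07% on the large arms. In both replicate lists the Het interval includes the large-arm value.

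The widest regions of chromosome 4 had 4691 bp (978026 to 982716, score 0.77), 4439 bp (the strongest replicated region above) and 4431 bp (62390 to 66820, score 0.83). The replicates scored the first of these 0.86 and 0.88, and the last 1.00 and 0.93. Combined-list regions were drawn wider than their replicate partners in 38 of the 41 replicated cases on chromosome 4 and 30 of the 33 on the Het scaffolds, against 3016 of 3358 on the large arms. The median share of a replicated region covered by replicate 1 was 89.8% on chromosome 4, 90.1% on the Het scaffolds and 95.4% on the large arms.

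On 2LHet, a scaffold of 0.369 Mb, 2 of 8 regions were overlapped by both replicates. These lay at 31890 to 35746, with scores of 0.78 in the combined list, 0.73 in replicate 1 and 0.91 in replicate 2, and at 168034 to 171736, with 0.87, 0.82 and 1.03. They were also the 2 widest of the scaffold, with 3857 and 3703 bp. The highest score, 2.67 at 48790 to 49816, belonged to a region of 1027 bp that neither replicate list held. The next was 1.19 at 246988 to 248260, also in neither.

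The third highest score of 2LHet showed the replicates apart. The region at 335802 to 337484 scored 1.15 in the combined list. Replicate 2 had it with a score of 2.52, the second highest of its 3841 regions, and replicate 1 did not list it.

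On 2RHet, 11 of 35 regions were overlapped by both replicates. Cut wherever more than 300 kb lay between neighbours, a limit chosen here, they formed 4 stretches. These ran from 77104 to 473158 (4 regions), 821874 to 823878 (1), 1335088 to 1624542 (2) and 2826476 to 3200426 (4). The highest score among them was 0.98 at 389684 to 392062, with 1.03 in replicate 1 and 1.02 in replicate 2. Next came 0.88 at 3196898 to 3200426, with 1.00 and 0.82. The widest region, 4211 bp at 3178498 to 3182708, scored 0.69, with 0.99 and 0.98.

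All 7 regions of 2RHet with a score over 1 were in neither replicate list. The 3 highest were 3.52 at 319806 to 320806, 2.93 at 583532 to 584532 and 2.42 at 36080 to 37118, with widths of 1001, 1001 and 1039 bp. Their scores thus exceed the highest replicated score of that scaffold by more than 1 on the log2 scale.

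On 3LHet, 11 of 36 regions were overlapped by both replicates. Of these, 6 lay within 253 kb (457512 to 710948), 1 stood alone at 1395038 to 1398082 and 4 lay within 222 kb (2189754 to 2411278). The lone region was the strongest replicated one, with 1.05 in the combined list, 1.08 in replicate 1 and 1.04 in replicate 2. The next, at 600408 to 602578, scored 0.74, with 0.75 and 0.80. The widest region of 3LHet had 4099 bp (2394732 to 2398830) and a score of 0.63, with 0.59 and 0.74.

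The highest score of the whole combined list, 3.93, was on 3LHet at 1506848 to 1507854, in a region of 1007 bp that neither replicate held, and 1 other region of the list had the same score. The next 2 scores of 3LHet, 1.31 at 1859254 to 1860254 and 1.22 at 1810290 to 1811290, were also in neither replicate and 1001 bp wide. Before its first replicated region, the scaffold had 6 regions in 0.458 Mb, all in neither list.

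On 3RHet, the 5 replicated regions all lay within 612 kb towards its end (1767360 to 2379436). Of the 17 regions before them, over 1.77 Mb, 14 were in neither replicate list and the others in 1. The strongest replicated region was at 2106110 to 2108322, with 1.25 in the combined list, 1.26 in replicate 1 and 1.39 in replicate 2. It was followed by 0.93 at 1767360 to 1770624 (0.91 and 1.08). The widest had 3461 bp at 1807444 to 1810904 and scored 0.80 (0.78 and 0.88). The highest scores of 3RHet, 2.25 at 1023336 to 1024414, 1.32 at 1669664 to 1670744 and 1.25 at 665294 to 666528, were in neither replicate. The region at 640802 to 641802 scored 0.93 in the combined list and 1.50 in replicate 2, and replicate 1 did not list it.

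YHet had 3 regions, of which 1 was replicated. That region, at 304266 to 306252, scored 0.99 in the combined list, 1.27 in replicate 1 and 1.18 in replicate 2. The region at 51248 to 52248 scored 2.93 with a width of 1001 bp, and the region at 77712 to 79436 scored 0.97. Neither replicate list had these, so the YHet scaffold is represented by 1 region per replicate.

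Part of XHet was marked at even steps in the combined list. Its strongest regions were replicated, at 82932 to 85864 with a score of 1.17 (1.32 in replicate 1 and 1.26 in replicate 2) and at 74518 to 77436 with 0.99 (1.09 and 0.96). The region at 124980 to 127102, with 0.86, was listed by replicate 1 only, at 1.05. Starting from the strongest region, 8 regions within 44.2 kb (82932 to 127102) followed each other at start-to-start distances between 5764 and 6588 bp, a mean of 6007 bp ± 287 (SD, 7 distances).

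In that run, replicate 1 listed 5 of the 8 regions, replicate 2 listed 2, both listed 1 and neither listed 2. Their scores were 0.58 to 1.17 and their widths 1255 to 2933 bp. After the strongest, replicate 1 had the regions starting at 89520 (score 1.00 in replicate 1), 101632 (0.78), 119216 (0.70) and 124980 (1.05). Replicate 2 had the one starting at 107416 (0.84 in replicate 2). Those starting at 95646 and 113390, with 0.74 and 0.65 in the combined list, were in neither. The steps thus came from the combined list, and neither replicate list alone held all of them. Runs of at least 5 such distances within a factor of 1.2 of each other were then looked for in the whole combined list, after the run had been seen, and this was the only one. Whether the underlying sequence repeats at that interval was not examined.

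**Figure D3:**
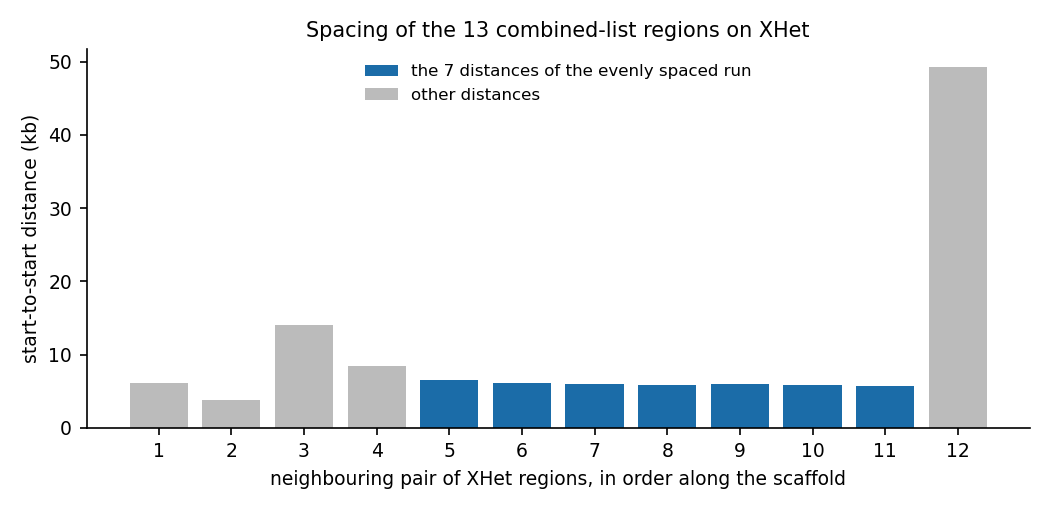
Start-to-start distance in kb (y axis) of the 12 neighbouring pairs among the 13 combined-list regions of XHet, in order along the scaffold (x axis), with the evenly spaced run in blue. The 7 distances of the run lie between 5764 and 6588 bp, and the others reach from 3854 to 49238 bp.

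Median scores of chromosome 4 and the Het scaffolds were close to that of the large arms, while the single highest scores differed. The median was 0.58 on chromosome 4 (a ratio of 1.50), 0.63 on the Het scaffolds (1.55) and 0.65 on the large arms (1.57). The highest score was 1.48 on chromosome 4, 3.93 on the Het scaffolds and 3.10 on the large arms. These come from 79, 125 and 5427 regions, and a highest value depends on how many regions there are. Scores over 1 were found in 12 of 79 regions of chromosome 4 (15.2%, 8.91 to 24.7) and 23 of 125 of the Het scaffolds (18.4%, 12.6 to 26.1). On the large arms it was 22.1% and in the whole list 22.6%, and both intervals include these values.

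On the large arms nearly all high-scoring regions had replicate support, and on the Het scaffolds few had it. Of regions with a score over 1, both replicates overlapped 8 of 12 on chromosome 4, 3 of 23 on the Het scaffolds and 1163 of 1200 (96.9%) on the large arms, or 90.6% in the whole list. At scores of 0.5 to 1 they overlapped 32 of 39 on chromosome 4 (82.1%), 29 of 72 on the Het scaffolds (40.3%) and 73.3% on the large arms, or 71.6% in the whole list. Under 0.5 it was 1 of 28, 1 of 30 and 12.6%, or 12.3% in the whole list. The Het scaffolds thus showed their highest support at intermediate scores. On chromosome 4 the share was 82.1% at intermediate scores and 66.7% over 1. The latter rests on 12 regions and has no interval, so no difference is read from it. All 9 Het regions with scores over 2 were in neither list, as were 11 of 14 on the large arms and 48 of 53 in the whole list (90.6%). Lack of support at such scores was thus not particular to the Het scaffolds. Chromosome 4 had no score over 2.

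**Figure D4:**
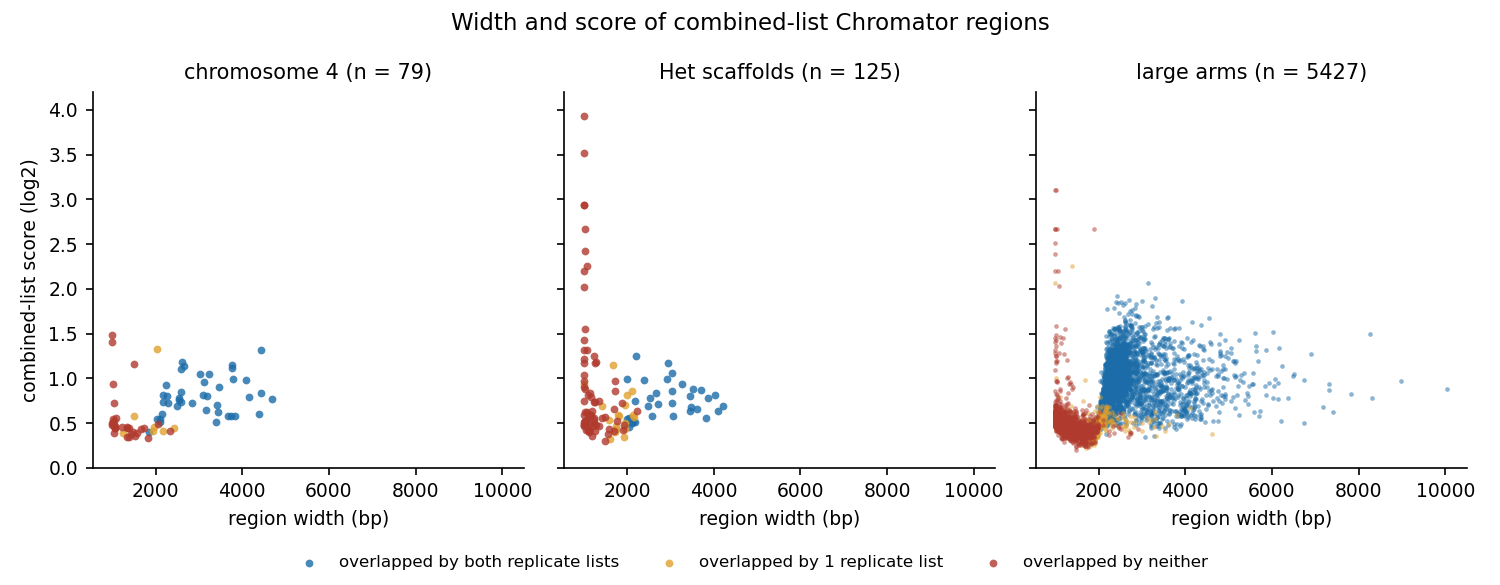
Width in bp (x axis) and log2 score (y axis) of each combined-list region on chromosome 4, the Het scaffolds and the 5 large arms, with colours for overlap by both replicate lists, 1 or neither. On the Het scaffolds the scores over 2 all belong to regions of at most 1079 bp in neither list, while the regions in both lists reach a score of 1.25 and a width of 4211 bp.

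Many unreplicated regions were narrower than any replicate region. The shortest region had 1001 bp in the combined list and 1301 bp in each replicate list. Under 1301 bp lay 17 of 79 regions of chromosome 4 (21.5%, 13.9 to 31.8) and 59 of 125 of the Het scaffolds (47.2%, 38.7 to 55.9), against 17.0% on the large arms and 18.6% of the whole list. Of the regions in neither list, 16 of 31 on chromosome 4 and 57 of 73 on the Het scaffolds were that narrow, against 868 of 1419 on the large arms. The replicate lists overlapped 3 of the 76 narrow regions, 1 on chromosome 4, 1 on 3LHet and 1 on 3RHet, each in 1 list.

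The highest Het scores had small whole numbers in lowest terms. Raised as a power of 2, each of the 204 scores was a ratio of 2 whole numbers times 1.91, a constant of the list. In lowest terms the ratio was 8 to 1 for the score of 3.93 on 3LHet, 6 to 1 for the 3.52 and 4 to 1 for the 2.93 on 2RHet, 4 to 1 for the 2.93 on YHet, 10 to 3 for the 2.67 on 2LHet and 5 to 2 for the 2.25 on 3RHet. The other 3 Het scores over 2, all on 2RHet, gave 14 to 5 (2.42), 12 to 5 (2.20) and 17 to 8 (2.02). What was counted is not stated, and a ratio in lowest terms can stand for any multiple of it. The replicated region of 3265 bp on 3RHet (0.93 at 1767360 to 1770624) also reduced to 1 to 1, so small numbers do not show what a score was counted from. The strongest replicated regions of chromosome 4 had 1397 to 1073 (86804 to 91242) and 661 to 557 (577326 to 579934).

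The smaller of the 2 numbers had a median of 144 for regions of chromosome 4 in neither list, 42 for those of the Het scaffolds and 115 for those of the large arms. For regions in both lists it was 533 on chromosome 4, 510 on the Het scaffolds and 338 on the large arms. Numbers of 10 or less occurred in 5 of 79 regions of chromosome 4 and 18 of 125 of the Het scaffolds (14.4%, 9.31 to 21.6), against 2.25% on the large arms and 3.31% of the whole list. Width moved with these numbers (medians of 1115 bp in neither list and 2933 bp in both on the Het scaffolds), and the part of each in the missing support was not tested.

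Where both replicates listed a region, their scores went together. On chromosome 4, 40 regions of each list overlapped only 1 of the other, with Pearson's r = 0.66 and Spearman's rho = 0.65. On the Het scaffolds there were 32 such pairs, with r = 0.78 and rho = 0.75, and on the large arms 3304 pairs, with r = 0.81 and rho = 0.78. These describe regions that share the same 2 libraries, and no p is given. The replicates placed the regions within a median of 76.8 bp of each other on chromosome 4, 81.5 bp on the Het scaffolds and 54.5 bp on the large arms, measured between middles.

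Score differences between the replicates centred near 0. Replicate 2 minus replicate 1 averaged 0.06 ± 0.19 (SD, 40 pairs) on chromosome 4, 0.03 ± 0.15 (32 pairs) on the Het scaffolds and -0.00 ± 0.19 (3304 pairs) on the large arms. The pairs farthest apart were at 2241036 to 2244648 of 3LHet, with 1.05 in replicate 2 and 0.58 in replicate 1, and at 1164770 to 1168434 of chromosome 4, with 0.97 and 0.51. In each of these the 2 lists also drew the region with different ends, with middles 1244 and 343 bp apart.

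**Figure D5:**
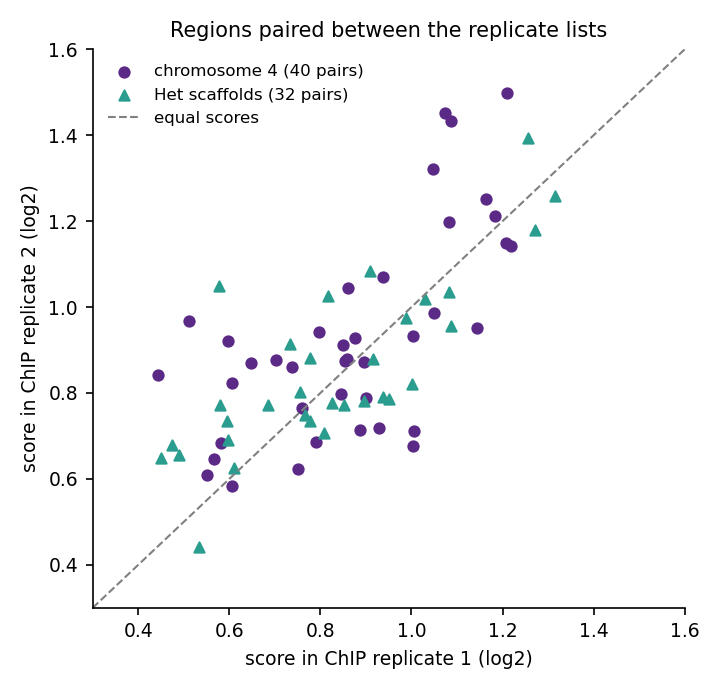
Score in ChIP replicate 2 (y axis) against score in ChIP replicate 1 (x axis), both log2, for the 40 region pairs of chromosome 4 and the 32 of the Het scaffolds, with the line of equal scores. Points lie along the line with an SD of the difference of 0.19 on chromosome 4 and 0.15 on the Het scaffolds.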

How the data were processed

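The deposited data were 3 region lists, 1 from each ChIP sample and 1 from both together. Each region has 1 log2 score, deposited by the authors without naming its scale, which was read from the values. Bowtie 0.12.7 is named in the submitters' processing notes, and per the file headers coordinates follow FlyBase release 5. Not given in the sources used here are the caller, its threshold, how replicates were combined and the read totals. The reference gene table is of Release 6, so no coordinates of it were used. Labels gave the groups. Overlap needed 1 bp. Shares have Wilson 95% intervals, densities exact Poisson intervals and medians exact binomial intervals. Score ratios allowed whole numbers up to 3000 at a relative tolerance of 1e-09, with the constant that gave the smallest numbers, so it is known only up to a whole-number ratio. The members and lists were chosen with earlier results of these data known. Named regions are the 10 highest and 3 widest of chromosome 4 and the 5 highest in neither replicate list, and on each Het scaffold the 3 highest, the 2 highest in both lists and the widest. Score bands, the 3000 bp limit, distances to replicated regions, replicated stretches, the 3 longest gaps of the Het scaffolds and even spacing were settled once the values had been seen. The alternatives tried were another overlap minimum, the 50% highest scores, a width limit, merging within 1000 bp and each replicate left out. Computation used scipy 1.17.1, pandas 2.3.3 and numpy 2.4.6 under Python 3.11.15, with figures by matplotlib 3.10.9. The overlap step was tested with shifted copies of combined-list regions, and the ratio step and the interval of the median with random numbers. The Wilson and Poisson intervals were not tested in this way.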

Additional observations from a re-analysis of the deposited data

How the results depend on the processing

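Of 53 alternative values for 11 results, 26 stayed inside the main interval or within 1.5 times the main density, and 27 moved. Keeping only the upper 50% of combined-list scores, the share overlapped by both replicates was 82.9% on chromosome 4 and 36.7% on the Het scaffolds, and overlap by neither was 14.3% on chromosome 4. That choice by construction lowers densities to 25.9 and 6.46 per Mb and raises median scores to 0.90 and 0.92, and the median width of chromosome 4 was 2609 bp. With regions of at least 1301 bp only, the shortest width seen in the replicate lists, which leaves out 76 regions of which the replicate lists overlapped 3, overlap by both was 66.1% on chromosome 4 and 50.0% on the Het scaffolds, and overlap by neither 24.2% on each, against 74.6% and 12.2% on the large arms. The Het density was then 7.11 per Mb and the Het median width 2082 bp. Merging neighbours within 1000 bp gave a median width of 2535 bp on chromosome 4. Leaving out 1 replicate gave overlap shares of 54.4% to 58.2% on chromosome 4 and 31.2% to 36.8% on the Het scaffolds, and no overlap in 41.8% to 45.6% and 63.2% to 68.8%. Here only the remaining list is asked for, so by construction both kinds of share can only stay or rise. The replicate lists alone gave 34.0 to 34.8 regions per Mb on chromosome 4 and 4.85 to 4.96 on the Het scaffolds, median scores of 0.86 to 0.87 and 0.78 to 0.80, and median widths of 2193 to 2257 bp and 2057 to 2095 bp. Except where the construction is named, the cause was not tested. The added limit to pairs sharing at least 50% of each region, chosen after seeing the data, gave r = 0.71 in 71 pairs, against 0.71 in 72. No paired analysis was possible because regions are listed for the ChIP samples alone and no list of an input sample was used here. Without read totals the effect of depth cannot be measured.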

Other observations

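Every replicate 1 region of chromosome 4 and the Het scaffolds was overlapped by the combined list, while 8 of the 92 replicate 2 regions were not, and replicate 1 overlapped none of these 8. The highest was on 3LHet at 264872 to 266700, with a score of 2.05, rank 6 of 3841. Next was 1.00 on 3RHet at 683850 to 685551. Chromosome 4 had 3, at 494095 to 496020 (0.66), 723615 to 725157 (0.86) and 1257316 to 1258705 (0.69). On the large arms the combined list lacked 39 of 3864 replicate 1 regions and 54 of 3728 replicate 2 regions.

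All starts of combined-list regions are even numbers (100% of 5762), against 49.6% in replicate 1 and 51.2% in replicate 2.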
